A study of Mus musculus with 12 samples.

Results

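The 10 immediate early genes described here, Fos, Fosb, Jun, Junb, Egr1, Ier2, Ier3, Btg2, Atf3 and Dusp1, were taken by gene symbol from the 16821 genes listed for mouse liver. Each symbol was found once, and 8 of the 10 genes passed the filter of the test across all genes. They were compared between 6 sedentary control mice (Con) and 6 mice after chronic exercise (Exe), all adult male C57BL/6J mice with 1 liver RNA library each and no labelled genetic change. Mice were bought at 8 weeks of age and adapted for 1 week. Exe mice then ran on a treadmill for 6 weeks, 5 days a week and 60 min a day. Speed started at 12 m/min and was raised by 1 m/min every 2 weeks. Con mice did not run and shared the room. Tissue was collected after saline perfusion, no later than 24 h after the final session. The hour of collection for each mouse is not given in the sources used here.

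Immediate early genes are transcribed within minutes of a stimulus, without the need for newly made protein, and their short-lived mRNAs decay soon afterwards. Growth factors, stress and hormones reach their promoters through MAP kinases, which activate the serum response factor with its partners, and through cAMP, which activates CREB. In liver they are known for their surge after partial hepatectomy and injury. Fos, Fosb, Jun and Junb encode subunits of the AP-1 transcription factor, in which a Fos protein pairs with a Jun protein. Egr1 encodes a zinc finger transcription factor and Atf3 a stress-induced member of the ATF and CREB family. Ier2 and Ier3 encode small immediate early response proteins. Btg2 encodes an antiproliferative protein that recruits mRNA deadenylases. Dusp1 encodes a phosphatase that switches off MAP kinases.

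The 250 bases upstream of the annotated start were read from RefSeq sequences of mouse build GRCm38.p6, which held such a window for 8 of the 10 genes. Egr1 and Ier2 had none. The pentamer TGACG, the core of the cAMP response element bound by CREB and ATF factors, was searched on both strands, as were the other motifs below. It was found in 6 of these 8 windows and in 17.8% of all 32851 windows of the same length. The whole palindrome TGACGTCA, which holds the pentamer on both strands, was found in 2 of the 8, Btg2 and Dusp1, against 1.55% of all windows. The windows of Fos, Junb, Btg2 and Dusp1 are shown because these genes had the lowest p-values between the groups. They are written 5′ to 3′ on the strand of the gene, with each TGACG, or CGTCA for the other strand, in capitals.
Fos: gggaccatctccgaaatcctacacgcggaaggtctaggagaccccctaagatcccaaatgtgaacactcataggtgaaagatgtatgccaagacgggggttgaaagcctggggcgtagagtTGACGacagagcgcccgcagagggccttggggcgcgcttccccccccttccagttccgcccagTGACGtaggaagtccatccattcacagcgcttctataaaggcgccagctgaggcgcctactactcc
Junb: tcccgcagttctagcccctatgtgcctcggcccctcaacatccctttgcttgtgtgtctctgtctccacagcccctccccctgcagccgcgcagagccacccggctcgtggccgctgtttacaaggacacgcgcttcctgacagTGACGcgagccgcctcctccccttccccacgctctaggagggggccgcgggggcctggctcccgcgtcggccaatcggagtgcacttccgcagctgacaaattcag
Btg2: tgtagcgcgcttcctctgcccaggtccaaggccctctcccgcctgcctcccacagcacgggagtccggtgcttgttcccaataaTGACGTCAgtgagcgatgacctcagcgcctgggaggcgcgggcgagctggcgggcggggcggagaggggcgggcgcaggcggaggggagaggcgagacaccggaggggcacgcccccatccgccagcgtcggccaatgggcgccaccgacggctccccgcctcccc
Dusp1: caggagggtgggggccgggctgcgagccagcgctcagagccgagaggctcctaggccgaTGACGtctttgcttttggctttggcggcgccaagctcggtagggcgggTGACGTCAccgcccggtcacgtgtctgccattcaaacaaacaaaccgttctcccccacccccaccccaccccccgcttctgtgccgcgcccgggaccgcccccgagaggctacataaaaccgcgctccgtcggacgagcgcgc
The Fos window lies at chr12:85473640-85473889 on the + strand and the Junb window at chr8:84978749-84978998 on the - strand. The Btg2 window lies at chr1:134079156-134079405 and the Dusp1 window at chr17:26508473-26508722, both on the - strand. In the Fos window the pentamer began 129 and 66 bases before the start, and in the Junb window 106 bases before it. The other 2 matches were in Fosb and Atf3. The AP-1 site, TGANTCA, was found in 0 of the 8 windows and in 6.75% of all windows. The CArG box of the serum response factor was found in 0 of the 8 and in 1.47% of all. Sites beyond these 250 bases, and any in Egr1 or Ier2, were not searched. The letters TATAAA were found in 1 of the 8, Fos, against 12.4% of all windows, and CCAAT in 4 against 33.8%. A match describes the letters of a window, not binding, which was not measured.

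The deposited values are FPKM, that is fragments divided by transcript length and by the mapped fragments of the mouse, a scale on which levels of different genes can be compared per length. Junb was the highest of the 10 genes, with a mean of 23.2 FPKM over the 12 mice. It was followed by Ier2 at 19.2 FPKM, Dusp1 at 12.8 FPKM and Egr1 at 11 FPKM. Btg2 had a mean of 4.78 FPKM, Jun 4.34 FPKM, Ier3 1.13 FPKM, Fos 0.896 FPKM, Atf3 0.677 FPKM and Fosb 0.0308 FPKM. Neighbours in this order overlapped over the 12 mice, except that the lowest Jun value of 2.13 FPKM was above the highest Ier3 value of 2.01 FPKM, and the lowest Atf3 value of 0.20 FPKM was above the highest Fosb value of 0.10 FPKM. The AP-1 subunits spanned this whole order, from Junb at its top to Fosb at its end. From low genes whose FPKM moved in whole steps, about 15950000 fragments per mouse were estimated, with an equal depth assumed for all mice. At that depth Fos rested on about 7.6 to 41.4 fragments per mouse and Fosb on 0 to 5.7. The 5 genes Jun, Junb, Ier2, Btg2 and Dusp1 rested on at least 96.9 fragments, and Egr1 on at least 96.3.

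**Figure D1:**
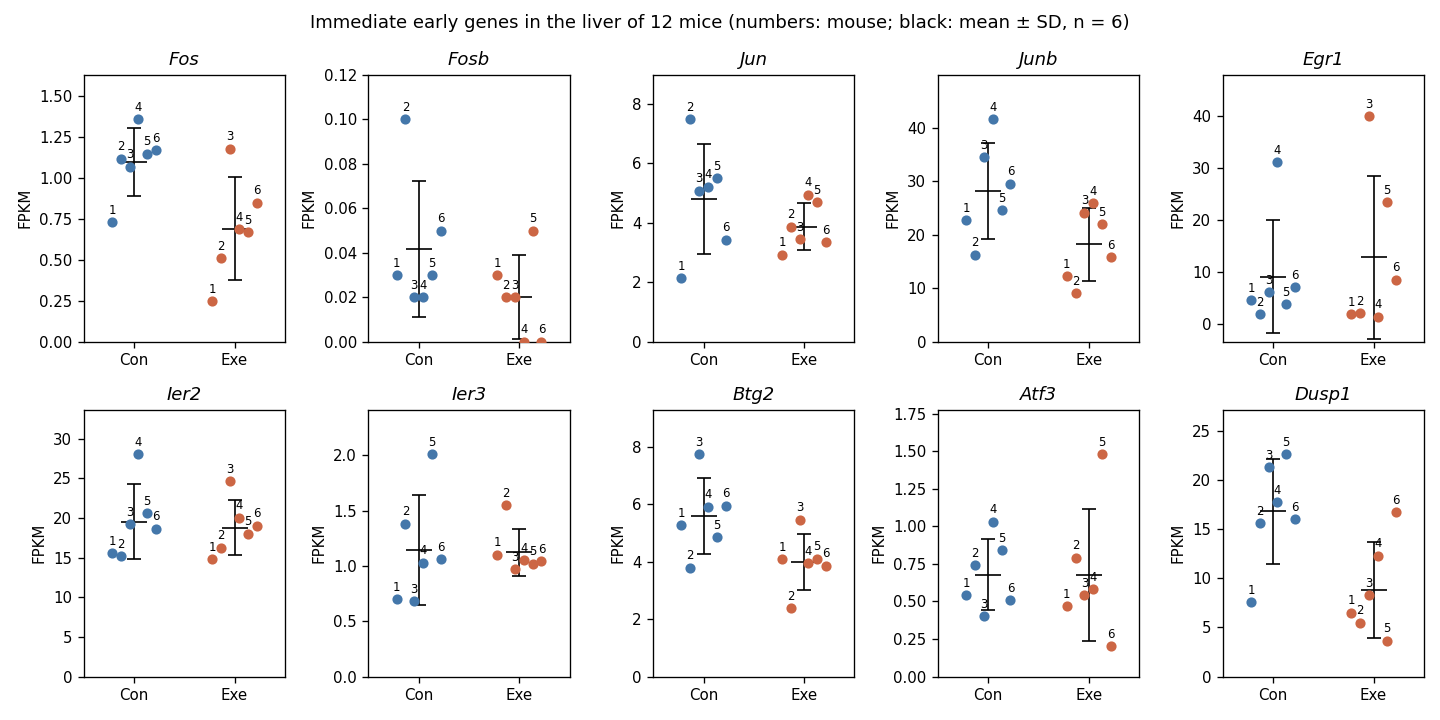
FPKM of each of the 10 genes (vertical axis, from 0 or below, own scale per gene) in 6 Con and 6 Exe mice. Points are mice with their number, and black bars are the mean ± SD of a group. Dusp1, Junb, Btg2 and Fos lay lower in Exe mice on average with overlap between the groups, and Egr1 was above 20 FPKM in Con 4, Exe 3 and Exe 5 only.

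Exe mice were compared with Con mice by limma on log2(FPKM + 1) with Benjamini-Hochberg adjustment over 10241 genes, those at 1 FPKM or more in 6 or more mice. Adding 1 understates the fold change of low genes. At an adjusted p of 0.05, 0 of the 10 genes passed, and 0 of all genes tested (0%) did, with a smallest adjusted p of 0.519. At an unadjusted p of 0.05, 636 of all genes (6.21%) passed, 199 of them lower in Exe mice (1.94%). Of the 10 immediate early genes, 4 passed this unadjusted threshold, Dusp1, Fos, Btg2 and Junb, and each of these was lower in Exe mice. The 10 genes were chosen with earlier results of these data known. Fos also passed the filter mainly through its Con values, so these counts are a description. By mean log2 value 8 of the 10 were lower in Exe mice, where 42.5% of all genes tested were lower. Of these 8, Fosb was near the detection limit, Atf3 had equal mean FPKM in both groups, and neither was among the genes tested. The median log2 fold change of the 10 genes was -0.12, against 0.02 over all genes tested, and -0.23 with a pseudocount of 0.1. When single mice were left out, the median of the 10 lay between -0.29 and -0.09, with -0.23 without Con 1, -0.29 without Exe 3 and -0.25 without Exe 5, and 6 to 9 of the 10 genes were lower. In bulk liver, fewer cells of a type and less RNA per cell cannot be told apart.

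Dusp1, the MAP kinase phosphatase, had the largest difference of the 10 on the log2(FPKM + 1) scale, while in FPKM the group means of Junb differed more. In Con mice the lowest Dusp1 value was 7.56 FPKM, its median 16.9 FPKM and its highest 22.7 FPKM. In Exe mice the lowest was 3.67 FPKM, the median 7.40 FPKM and the highest 16.8 FPKM. All Exe mice were below the Con median, 3 of them below every Con mouse, while Con 1 lay among the Exe values and Exe 6 among the Con values. Dusp1 averaged 16.8 ± 5.35 FPKM in Con and 8.84 ± 4.87 FPKM in Exe mice (SD, n = 6 each), 47.5% lower. The log2 fold change was -0.93 with a standard error of 0.31. Its limma p was 0.00977 and its adjusted p 0.793, and an exact two-sided permutation test over all divisions of the mice into 2 groups of 6 gave p = 0.0303 (unadjusted, smallest possible 0.00217). Its log2 fold change ran from -1.13 to -0.74 when each mouse was left out, with an unadjusted limma p under 0.05 in 12 of 12 cases.

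Among the AP-1 subunits, the 2 Fos genes were the lowest expressed. Fos ran from 0.73 FPKM through a median of 1.14 FPKM to 1.36 FPKM in Con mice. In Exe mice it ran from 0.25 FPKM through 0.68 FPKM to 1.18 FPKM. Of the Exe mice 4 lay below every Con mouse, Exe 6 was above Con 1 alone, and Exe 3 exceeded all but 1 Con mouse. The means were 1.10 ± 0.206 FPKM and 0.692 ± 0.314 FPKM (SD, n = 6 each), 37.1% lower in Exe mice. The log2 fold change of Fos was -0.33 ± 0.12 (SE) on the log2(FPKM + 1) scale and -0.69 with a pseudocount of 0.1. Fos had a limma p of 0.015 (adjusted p 0.793) and an exact permutation p of 0.0303. Fos entered the fit because 5 Con mice and 1 Exe mouse reached 1 FPKM, so the group in which it was higher carried it past the filter. The 6 Con values had a coefficient of variation of 18.8%, where counting alone would give about 17.3% at the estimated depth. In Exe mice the coefficient was 45.4% against 21.8% from counting. Counting error here covers the sampling of fragments only.

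Fosb was listed at 0.02 to 0.10 FPKM in Con mice and at 0 to 0.05 FPKM in Exe mice, with 0 in Exe 4 and Exe 6. Only Con 2 was above the 0.0525 FPKM that 3 fragments are worth, so no fold change is given, and a difference in Fosb was not detectable at this depth. It did not enter the fit across genes.

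Junb had the highest level of the AP-1 subunits. It ran from 16.3 FPKM through a median of 27.0 FPKM to 41.6 FPKM in Con mice. In Exe mice it ran from 9.10 FPKM through 18.9 FPKM to 25.9 FPKM. All 6 Exe mice were below the Con median, 3 Con mice were above every Exe mouse and 3 Exe mice below every Con mouse. The means were 28.2 ± 9.003 FPKM and 18.2 ± 6.83 FPKM (SD, n = 6 each), with a log2 fold change of -0.63 ± 0.26 (SE). The limma p was 0.0285 (adjusted p 0.793), and the exact permutation p was 0.0606. Junb was past the unadjusted limma threshold in 8 of 12 fits that left out a mouse, with p of 0.0620, 0.0693, 0.0653 and 0.0691 without Con 3, Con 4, Exe 1 and Exe 2.

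Jun ran from 2.13 FPKM through 5.15 FPKM to 7.48 FPKM in Con mice and from 2.93 FPKM through 3.67 FPKM to 4.95 FPKM in Exe mice. Of the Con mice 4 were above every Exe mouse, yet the lowest value of all was in Con 1. Its log2 fold change was -0.20 ± 0.20 (SE), with a limma p of 0.331 and an exact permutation p of 0.387. Without Con 1 the log2 fold change was -0.36 with an unadjusted limma p of 0.0320 (adjusted p 0.947). In GENCODE M21, an annotation on the same mouse assembly as the windows above, the antisense gene Junos overlaps Jun and the protein-coding gene Prdx2 overlaps Junb, both on the other strand. Dusp1 is overlapped by Ergic1, a protein-coding gene on the other strand, by pseudogenes on either strand and by an intronic transcript, and Atf3 by the small RNA gene Gm24748. How the authors' counting treated strand is not given in the sources used here.

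Btg2, the antiproliferative gene, ran from 3.79 FPKM through 5.59 FPKM to 7.74 FPKM in Con mice. In Exe mice it ran from 2.39 FPKM through 4.02 FPKM to 5.46 FPKM. All 6 Exe mice were below the Con median, and Exe 2 was below every Con mouse. The means were 5.58 ± 1.32 FPKM and 3.97 ± 0.976 FPKM (SD, n = 6 each), 28.8% lower in Exe mice. This was a log2 fold change of -0.41 ± 0.15 (SE), with a limma p of 0.0186 (adjusted p 0.793) and an exact permutation p of 0.0346. Btg2 and Fos were both past the unadjusted limma threshold in 12 of 12 fits that left out a mouse.

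Egr1 was high in a few mice of both groups. In Con mice it was listed at 4.67, 1.94, 6.16, 31.12, 3.79 and 7.11 FPKM in Con 1 to Con 6. In Exe mice the values were 1.87, 2.09, 39.92, 1.41, 23.38 and 8.53 FPKM in Exe 1 to Exe 6. The values were above 20 FPKM in Con 4, Exe 3 and Exe 5, and the other mice stayed between 1.41 and 8.53 FPKM. Its highest value was 28.3 times its lowest. The log2 fold change of 0.07 had a 95% interval from -1.51 to 1.66 and a limma p of 0.921. The sign was negative with a pseudocount of 0.1 and without Con 2, Con 5, Exe 3 or Exe 5.

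For the remaining 3 genes the group means lay close together. Ier2 ran from 15.2 to 28.0 FPKM in Con and from 14.8 to 24.6 FPKM in Exe mice, with medians of 18.9 and 18.5 FPKM, a log2 fold change of -0.04 (95% interval -0.35 to 0.26) and a limma p of 0.765. Ier3 ran from 0.68 to 2.01 FPKM in Con and from 0.97 to 1.55 FPKM in Exe mice, around the same median of 1.05 FPKM. Its log2 fold change was 0.01 (95% interval -0.27 to 0.29) with a limma p of 0.941. Atf3 averaged 0.677 FPKM in both groups, with an SD of 0.236 FPKM in Con and 0.437 FPKM in Exe mice. Its highest value was 1.48 FPKM in Exe 5 and its lowest 0.20 FPKM in Exe 6. Atf3 reached 1 FPKM in 2 mice and was under the filter, and the fit without the filter gave a limma p of 0.870. The signs of the differences in Ier2, Ier3 and Atf3 turned when single mice were left out.

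**Figure D2:**
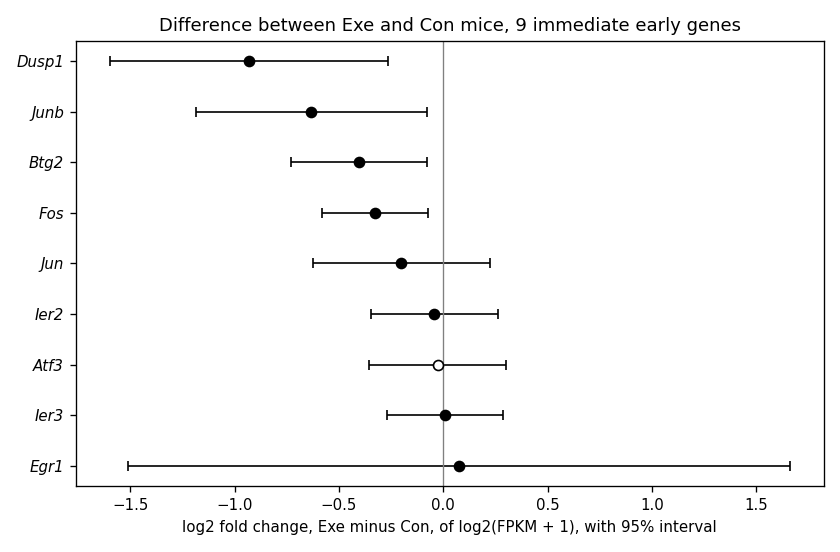
Log2 fold change (horizontal axis, Exe minus Con, of log2(FPKM + 1)) of 9 of the genes with its 95% interval from limma, Fosb left out as near 0. Filled circles are genes in the fit across 10241 genes, the open circle is Atf3 from the fit without a filter. The intervals of Dusp1, Junb, Btg2 and Fos lie below 0 before adjustment, and that of Egr1 spans -1.51 to 1.66.

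The spread between mice of a group was wide for the immediate early genes. Within groups, the SD of log2(FPKM + 1) had a median of 0.290 over the 10 genes, of 0.343 over the 8 of them in the fit and of 0.140 over all genes tested. With a pseudocount of 0.1 these medians were 0.485, 0.485 and 0.165. Egr1 had an SD at the 99.9th percentile of all genes tested, Dusp1 at the 98.8th, Junb at the 97.9th and Jun at the 95.6th. Btg2 lay at the 91.0th percentile, Ier2 at the 89.4th, Ier3 at the 85.5th and Fos at the 81.1st. Low levels compress the SD on this scale, which bears on Fos and Ier3.

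The mice with high and low values were in part the same across genes. Con 4 held the highest value of 3 of the 10 genes, Fos, Junb and Ier2, and had the highest mean z-score of the 10 genes, 0.917. Exe 1 had the lowest mean z-score, -0.867, and Exe 2 followed at -0.704. In each of Con 1, Exe 1 and Exe 2, 8 of the 10 genes were below their median over the 12 mice. Con 1 was thus low among the sedentary mice, with a mean z-score of -0.537, and was above the Con median for 0 of the 10 genes. Exe 3 was high among the running mice, with a mean z-score of 0.254.

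**Figure D3:**
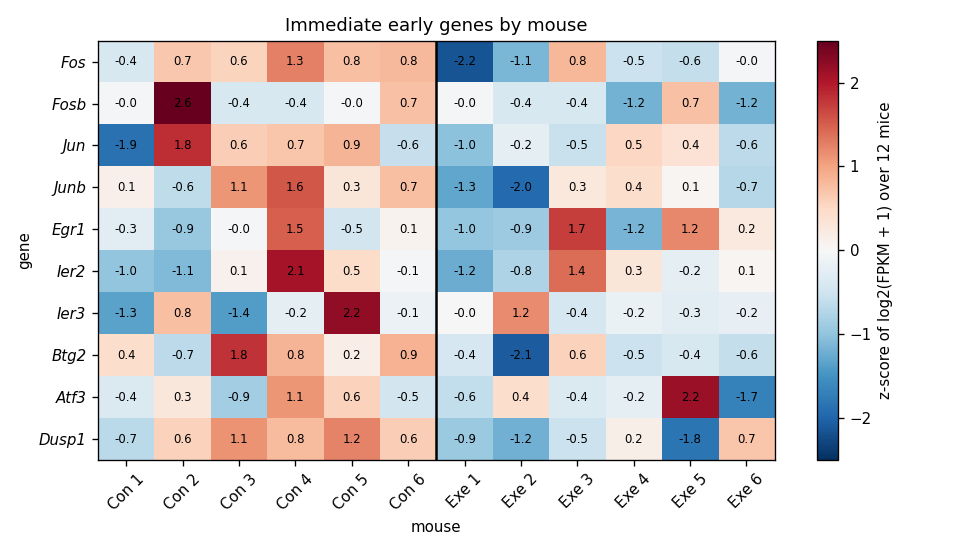
Map of the z-score of log2(FPKM + 1) over 12 mice (colour, red high and blue low, values printed) for the 10 genes in rows and the mice in columns, Con left of the line and Exe right of it. Con 4 is red in most rows and Exe 1 and Exe 2 blue in most, while Egr1, Ier2, Ier3 and Atf3 mix high and low mice in both groups.

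Relations between genes over the 12 mice were computed for all 45 pairs, a family that, other than the 9 pairs with Fos, was added after the data were seen. Pearson's r was above 0 in 31 of the 45 pairs, with a median of 0.23. With Benjamini-Hochberg adjustment over the 45 pairs, 1 pair passed an adjusted p of 0.05, Junb with Btg2. Their r was 0.856 (permutation p = 0.00043, adjusted p 0.0193). Spearman's rho was 0.811 (permutation p = 0.00204), with an adjusted p of 0.0918 over the same pairs. Without Exe 1 and Exe 2, the mice farthest from the Junb median, r was 0.783 (permutation p = 0.00751). Within Con mice r was 0.827 (exact permutation p = 0.0486) and within Exe mice 0.756 (exact permutation p = 0.0694). Con 3 and Con 4 lay high and Exe 2 lowest in both genes.

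Fos passed the unadjusted threshold with 4 of the 9 other genes and the adjusted threshold with 0, over the 9 pairs with Fos as over all 45. Fos with Junb had an r of 0.720 and a rho of 0.685 (permutation p = 0.00857 and 0.0168, adjusted p 0.110 and 0.164 over 45 pairs, 0.0534 and 0.0548 over the 9 pairs with Fos). With any 1 mouse left out, r was 0.657 to 0.798, with a permutation p under 0.05 in 12 of 12 cases. Without both Exe 1 and Exe 2, the mice farthest from the Fos median, r was 0.437 (permutation p = 0.209), over a narrower range of Fos. Fos with Dusp1 had an r of 0.692 and a rho of 0.678 (permutation p = 0.0119 and 0.0183, adjusted p 0.110 and 0.164 over 45 pairs, 0.0534 and 0.0548 over 9), and an r of 0.619 without the same mice (permutation p = 0.0505). Its r was 0.790 within Con mice (exact permutation p = 0.0972) and 0.367 within Exe mice (exact permutation p = 0.479). With the group means taken off each mouse, 2 of the 9 genes had an unadjusted p under 0.05 with Fos, Ier2 (r = 0.792, permutation p = 0.00243) and Egr1 (r = 0.667, permutation p = 0.0164). Junb (permutation p = 0.0501), Dusp1 (0.108) and Btg2 (0.275) no longer did. These permutations ran over all 12 mice rather than within groups, so the p-values are approximate. The SD of Fos on the log2 scale differed, at 0.149 in Con and 0.270 in Exe mice. Egr1 with Ier2 had an r of 0.717 (permutation p = 0.00850, adjusted p 0.110) but a rho of 0.524 (permutation p = 0.0827, adjusted p 0.248). With any 1 mouse left out, the r of this pair was 0.62 to 0.81, with a permutation p under 0.05 in 12 of 12 cases. Without both Con 4 and Exe 3, the mice farthest from the Egr1 median, it was 0.309 (permutation p = 0.393), over a narrower range of Egr1.

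**Figure D4:**
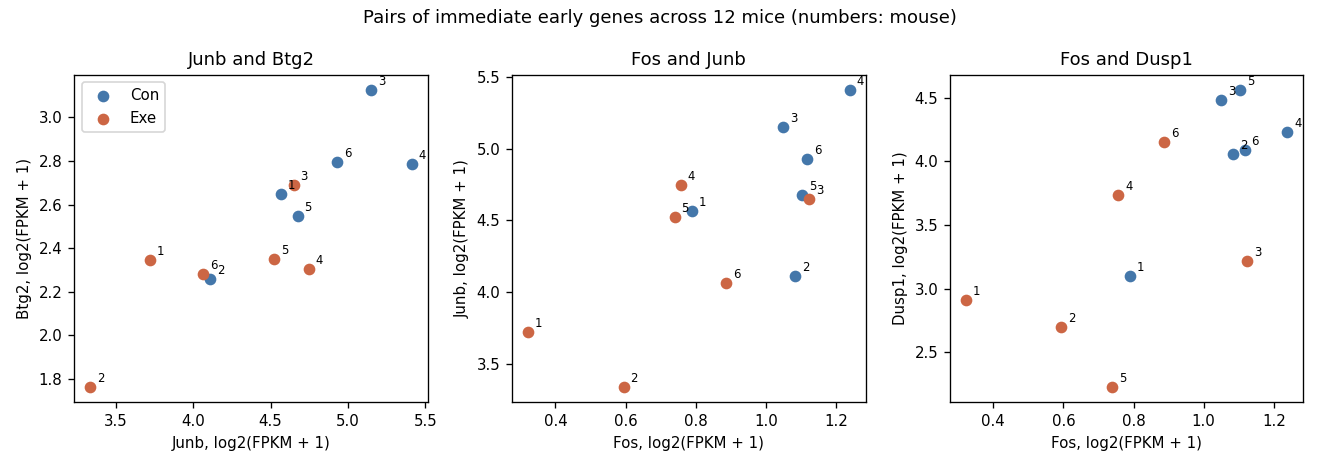
Values of log2(FPKM + 1) of Btg2 against Junb, Junb against Fos and Dusp1 against Fos in 12 mice (blue Con, orange Exe, numbers are mice). The r of 0.856 between Junb and Btg2 runs through both groups, while Exe 1 and Exe 2 lie at the low end of both genes in the Fos and Junb panel.

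Other genes whose mRNA follows the same stimuli were counted from lists, 110 genes in 5 lists, of which 91 were tested. At an adjusted p of 0.05, 0 of them passed. At an unadjusted p of 0.05, which 6.21% of all genes tested passed, 11 of the 91 passed, 10 lower and 1 higher in Exe mice, and the count was 6 without Exe 2 and 7 without Con 5. Among other rapid-response genes, 23 of 33 were lower, where 42.5% of all genes tested were, and 8 passed the unadjusted threshold. Csrnp1, a nuclear protein induced by AXIN1, averaged 6.38 ± 1.31 FPKM in Con and 3.38 ± 1.16 FPKM in Exe mice (SD, n = 6 each). Pim3, a serine/threonine kinase that favours cell survival, averaged 34.2 ± 8.41 FPKM and 17.4 ± 6.03 FPKM. The log2 fold changes were -0.78 for Csrnp1 and -0.97 for Pim3, each with an adjusted limma p of 0.519 and an exact permutation p of 0.00433, and both passed the unadjusted limma threshold in 12 of 12 fits that left out a mouse. Plk3, a stress-responsive polo-like kinase, had a log2 fold change of -0.71 (exact permutation p = 0.0606). Socs3, the feedback inhibitor of IL-6 signaling, had one of -0.55 (exact permutation p = 0.0368), and of -0.34 without Con 1, the mouse in which it was at 13.3 FPKM. Zfp36, which destabilizes AU-rich mRNAs such as that of Fos, had a log2 fold change of -0.42 (exact permutation p = 0.0823). Errfi1, an inhibitor of the EGF receptor, was at -0.36 (exact permutation p = 0.0801) and Trib1, a pseudokinase, at -0.25 (exact permutation p = 0.0303). With single mice left out, the unadjusted limma threshold was passed in 7 of 12 fits by Plk3, 8 by Socs3, 5 by Zfp36, 4 by Errfi1 and 12 by Trib1. Mcl1, a survival protein, was the gene higher in Exe mice, at 0.15 (exact permutation p = 0.0303). Gadd45g, a growth arrest gene, had the lowest log2 fold change at -0.98 without passing (exact permutation p = 0.106), with 43.3 FPKM in Con 1 against at most 10.1 FPKM in the others, and was at -0.51 without Con 1. Id1, a dominant-negative helix-loop-helix protein, had the highest at 0.29 (exact permutation p = 0.400), and was at 0.058 without Exe 4.

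Of the relatives of AP-1 and ATF, 9 of 12 tested genes were lower in Exe mice, where 42.5% of all genes tested were. At the unadjusted threshold 1 of the 12 passed, where 6.21% of all genes tested did. This was Batf3, a partner of Jun proteins in immune cells, at 1.38 ± 0.314 FPKM in Con and 0.828 ± 0.377 FPKM in Exe mice (SD, n = 6 each). Jund, the AP-1 subunit expressed without stimulation, was even across mice, from 19.3 to 24.8 FPKM in Con and from 20 to 25.5 FPKM in Exe mice. It is named after its values were seen. The highest log2 fold change of this list was 0.09 for Atf1. Of the EGR, NR4A and KLF relatives, 6 of 8 were lower, against the same 42.5%, and 1 of 8 passed the unadjusted threshold, against the same 6.21%. This was Nr4a1, an orphan nuclear receptor that is itself an immediate early gene. Batf3 and Nr4a1 reached 1 FPKM in more Con than Exe mice, so both passed the filter mainly through the group in which they were higher. Nr4a1 ran from 0.58 to 4.01 FPKM in Con and from 0.57 to 1.06 FPKM in Exe mice. The 3 Con mice Con 3, Con 4 and Con 5 were between 3.91 and 4.01 FPKM, Con 2 and Con 6 were also above every Exe mouse, Con 1 lay at the low end of the Exe values, and the log2 fold change was -0.78 (exact permutation p = 0.0346). Klf6, a zinc finger factor, was at the other end of this list at 0.07.

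Genes that carry the signal to these promoters were counted in the same way. Of 32 tested genes of the MAP kinase, SRF and CREB inputs, 23 were higher and 9 lower in Exe mice, where 42.5% of all genes tested were lower. The median log2 fold change of the 32 was 0.03. The 1 gene past the unadjusted threshold, which 6.21% of all genes tested passed, was Rps6ka1, a kinase downstream of ERK, at -0.24 (exact permutation p = 0.0584). The highest was Crem, a cAMP-responsive factor, at 0.15. Of the other dual specificity phosphatases, relatives of Dusp1, 3 of 6 were higher and 0 passed the unadjusted threshold, between -0.08 for Dusp3 and 0.12 for Dusp7.

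**Figure D5:**
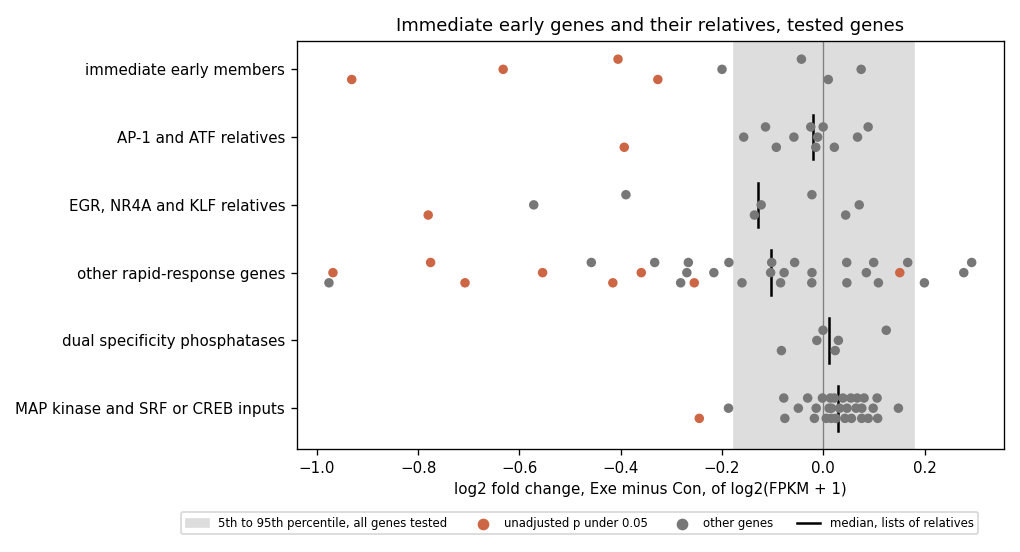
Log2 fold change (horizontal axis, Exe minus Con) of the tested genes in each list (rows), with the 5th to 95th percentile of all genes tested from -0.18 to 0.18 in grey. Orange points had an unadjusted limma p under 0.05, and none passed after adjustment; black bars are medians of the lists of relatives. Rapid-response genes reach beyond the grey band on both sides, from -0.98 for Gadd45g to 0.29 for Id1, with their median of -0.10 inside it, and the inputs lie inside it except for Rps6ka1 and Mknk2 on the left.

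The genes tested whose log2 values followed Fos most closely over the 12 mice were Msi2 (r = 0.874), Tk2 (r = 0.844), Thap4 (r = 0.828), Zfand3 (r = 0.824), Hps1 (r = 0.822), Natd1 (r = 0.812), Abtb1 (r = 0.799), Tmem159 (r = 0.799), Obp2a (r = 0.798) and Stau2 (r = 0.795). Those nearest the mean z-score of the tested immediate early genes were Adck5 (r = 0.901), Tk2 (r = 0.884), Tspan33 (r = 0.845), Thap4 (r = 0.827) and Spc25 (r = 0.816). These are the highest of 10241 genes, chosen by r, and carry no test.

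Summed markers of hepatocytes, the main cell type of the labelled tissue, were at 57665 to 75640 FPKM in Con and 66485 to 82521 FPKM in Exe mice, with 0 of the 8 markers at 0. Over 13 marker and state lists, the sums differed at an unadjusted exact permutation p of 0.0303 for hepatocytes and 0.0390 for T and B cells, both higher in Exe mice, and at an adjusted p of 0.253 for each. The hepatocyte sum was led by Alb, at a mean of 34840 FPKM in Con and 43908 FPKM in Exe mice. Of the 8 hepatocyte markers 7 were higher and 1, Tat, was lower in Exe mice. Of the 9 T and B cell genes, 2 averaged 1 FPKM or more. Kupffer cell and macrophage markers summed to 155 to 285 FPKM in Con and 109 to 270 FPKM in Exe mice, and 8 of 8 were lower in Exe mice. Genes of the response to glucocorticoids, hormones that also induce Dusp1, summed to 1178 to 3040 FPKM and 1074 to 1933 FPKM, with 6 of 7 lower. Acute phase genes summed to 6949 to 42106 FPKM and 6993 to 41719 FPKM, with 8 of 8 lower. Circadian clock genes summed to 130 to 247 FPKM and 127 to 221 FPKM, with 5 of 10 lower. This sum was led by Dbp, Nr1d1 and Tef, and differences in opposite directions can cancel in it. Log2 fold changes were -1.05 for Ciart (exact permutation p = 0.117), -0.47 for Dbp and -0.37 for Nr1d1. They were 0.47 for Arntl (exact permutation p = 0.143) and 0.30 for Cry1, and 0 of the 10 passed the unadjusted threshold. Ciart ran from 1.87 to 13.6 FPKM in Con and from 0.39 to 10.1 FPKM in Exe mice. Beside these counts of lower genes, 42.5% of all genes tested were lower in Exe mice. Over the 12 mice Fos passed an unadjusted p of 0.05 with 0 of the 13 sums (smallest adjusted permutation p 0.745). Within Con mice its r was -0.955 with neutrophils (exact permutation p = 0.0111) and -0.792 with acute phase genes (0.0250). Within Exe mice these r were 0.531 and 0.230. With clock genes r was -0.818 within Exe mice (exact permutation p = 0.0333) and 0.056 within Con mice. These p-values are unadjusted, and no other sum had one under 0.05 within a group. The part of these cells and states in the differences above was not tested.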

How the data were processed

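Per the file headers and the methods of the study, the deposited values are FPKM per gene and mouse, given to 2 decimals. The authors sequenced TRIzol-extracted total RNA as paired reads of 150 bp, removed low-quality reads and aligned the rest with HISAT. The submitters' processing notes name HISAT, Bowtie2 and the builds GRCm39 and mm10. The FPKM tool and strand setting are not given in the sources used here. The authors used PCA to exclude outliers, and their differential test was DESeq, which needs counts and was not run on FPKM.

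R 4.3.3 with limma 3.58.1 (trend) was used on log2(FPKM + 1), and Python 3.11.15 with scipy 1.17.1 for the exact tests and, with 100000 permutations, for correlations. The fit held genes at 1 FPKM or more in 6 or more of the 12 mice, and the steps were tested on simulated data. The FPKM sum per mouse ran from 735200 to 820107, and Spearman's rho between mice was 0.981 to 0.987. Fragments behind a value were estimated from 87 low genes (quartiles 15310000 and 16520000), with 200 bases taken off the transcript length. Promoter windows came from RefSeq GRCm38.p6, another build than that of the alignment, and no coordinates were mixed. No labels gave a batch.

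The 10 genes and all lists were chosen with earlier results of these data known. Named beside the 10 were each listed gene with an unadjusted p under 0.05, the highest and lowest log2 fold change of each list, and the 10 and 5 genes most like Fos and the mean z-score. The alternatives were quantile normalization, a TPM scale, no filter, a stricter filter (5 FPKM), a pseudocount of 0.1, robust moderation, the replicate number as a block and each mouse left out.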

Additional observations from a re-analysis of the deposited data

Results flagged for a closer look

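Among sets of 6 mice, a lowest or highest mouse was far from the others by Dixon's criterion at 95% in 7 of 46 sets. The sets were those of the immediate early genes and marker sums. For normally distributed values chance gives about 2.3. The criterion was run on FPKM rather than log2 values, and the sets share the same mice, so this excess is not a test. Of the immediate early genes, Egr1 stood out in Con 4 at 31.12 FPKM, where the next Con mouse was at 7.11 FPKM, and Ier3 stood out in Exe 2 at 1.55 FPKM, where the next Exe mouse was at 1.10 FPKM. Exe 3 and Exe 5, the Exe mice with high Egr1, did not stand out by this criterion. Without Con 4 the log2 fold change of Egr1 was 0.50, with no p under 0.05.

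The other 5 sets were marker sums. The acute phase sum was 41718.7 FPKM in Exe 5, against at most 15751 FPKM in the other Exe mice. In Exe 5 it was led by Saa2 at 10832 FPKM, Saa1 at 8994 FPKM and Hpx at 8602 FPKM. The neutrophil sum was 34.31 FPKM in Con 1 (led by S100a8, S100a9 and Retnlg). The sum of stellate cell and fibroblast genes was low in Con 5, at 49.45 FPKM, of which Dcn made up 41 FPKM. The cholangiocyte sum was 77.04 FPKM (led by Spp1, Krt19 and Sox9) and the T and B cell sum 9.87 FPKM (led by Cd79a, Jchain and Cd79b), both in Exe 5. Exe 5 also held the highest Atf3 and the lowest Dusp1 value, and whether these go together was not tested.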

How the results depend on the processing

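Of 455 values under alternatives, 417 were classed as unchanged. For a log2 fold change this meant the same sign and an adjusted p not under 0.05, whatever its unadjusted p. No filter, the stricter filter, robust moderation and the block leave each log2 fold change as it was, so its sign could not turn there. For a correlation it meant the same sign and the same side of an unadjusted permutation p of 0.05. Counts, medians and spreads could shift within a set margin. Without the filter, 1 gene of all passed an adjusted p of 0.05, none of the 10. With the stricter filter, 2 of the 10 genes passed an unadjusted p of 0.05, since Fos and Btg2 were no longer tested. Leaving out each mouse gave 418 to 910 genes at an unadjusted p of 0.05 (418 without Exe 2), 6 to 14 listed relatives, 2 to 4 relations with Fos (2 without Con 4) and 0 to 1 relations of Fos with marker sums (1 without Exe 5). With group means taken off, 2 relations with Fos passed. Chosen after seeing the data, a pseudocount of 0.1 raised the median spread of the 10 genes from 0.290 to 0.485. The log2 fold change turned its sign for Egr1 with a pseudocount of 0.1 (-0.0023) and without Con 2 (-0.19), Con 5 (-0.046), Exe 3 (-0.41) or Exe 5 (-0.26). It turned for Ier3 without Con 1 (-0.051), Con 3 (-0.054) or Exe 2 (-0.044), for Ier2 without Con 4 (0.062) or Exe 1 (0.018), and for Atf3 without Con 4 (0.032), Con 5 (0.0040), Exe 1 (0.0054) or Exe 6 (0.064). Leaving out each mouse, their ranges were -0.41 to 0.50 for Egr1, -0.054 to 0.11 for Ier3, -0.12 to 0.062 for Ier2 and -0.15 to 0.064 for Atf3. The cause was not tested. Leaving out mice for the named relatives was also chosen after seeing the data. Over all alternatives the lowest adjusted p was 0.534 for Fos and Dusp1 and 0.489 for Junb and Btg2.

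The correlation of deviations between same-numbered mice of both groups was over 0.1 in 1 of 6 pairs (-0.478 to 0.165). In the other pairs it was -0.294 to 0.384. These values cannot show whether the numbers mark a shared order or batch. With the replicate number as a block, 567 genes, 4 of the 10 and 10 relatives passed an unadjusted p of 0.05, and 0 passed after adjustment. In this design the block cannot change a log2 fold change, so the 8 of the 10 that were lower and their median of -0.12 were fixed beforehand. In this fit the unadjusted limma p was 0.000166 for Junb and 0.000191 for Btg2, each with an adjusted p of 0.489. It was 0.00677 for Fos and 0.0120 for Dusp1, each with an adjusted p of 0.86.

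Depth limits Fosb, Atf3, Ier3 and Fos, whose values rest on few fragments. Median shifts of all genes were 0.016, 0.0058 with quantile normalization and 0.050 on the TPM scale.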

Other observations

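Values in Con 1, chosen after they were seen, stood apart among listed relatives of the immediate early genes. Con 1 held the highest value of the 12 mice for Gadd45g (43.3 FPKM), Socs3 (13.3 FPKM), Myc (4.83 FPKM) and Batf3 (1.80 FPKM), and also the highest acute phase sum (42106 FPKM). In the same mouse Jun was at its lowest (2.13 FPKM), and Fos and Dusp1 were the lowest of the Con mice (0.73 and 7.56 FPKM). Among relatives under the filter, Batf, a partner of Jun proteins in lymphocytes, ran from 0.27 to 1.15 FPKM in Con and from 0.27 to 0.54 FPKM in Exe mice.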
